A study of Mus musculus with 20 samples.

Results

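The fringe glycosyltransferase family of the mouse has 3 members, Lfng (lunatic fringe), Mfng (manic fringe) and Rfng (radical fringe). They were taken by symbol from tables of 55421 features per cell type, and each of the 3 symbols occurred in 1 row. RNA-seq was done on 20 libraries, 10 of induced presomitic mesoderm (iPSM) colonies and 10 of embryonic stem cells (ESC), to ask what the circadian activators CLOCK and BMAL1 do to the segmentation clock. The tested lines carried tetO-Clock/Bmal1, which doxycycline (dox) switches on, or tetO-Clock/Bmal1DN, in which Bmal1 is replaced by a dominant-negative form. Each transgenic group had 2 libraries from 2 clones, and each clone was measured with and without dox. A control line, whose genotype is given as control, gave 1 library with and 1 without dox per cell type.

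The iPSM colonies were differentiated from E14TG2a ESC that carry a luciferase reporter under the Hes7 promoter, and they received 1000 ng/mL dox for 2 hours. The control line of the iPSM carries the reporter too, and the E14TG2a lines were kept without feeder cells, per the labels. The Clock/Bmal1 clones were numbers 12 and 20, and the Clock/Bmal1DN clones were numbers 7 and 19. The ESC were of the KY1.1 line and received 500 ng/mL dox for 6 hours, with Clock/Bmal1 clones 1 and 7 and Clock/Bmal1DN clones 5 and 6. Cell type, parental line, dose and time therefore change together and cannot be told apart. The p-values rest only on the spread between the 2 clones of a group, pooled over the transgenic groups of a fit. The main fits did not pair the libraries of a clone, so differences between clones before dox add to that spread. In bulk RNA fewer cells of a type and less RNA per cell cannot be told apart.

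Fringe enzymes sit in the Golgi and add N-acetylglucosamine to O-linked fucose on the EGF repeats of Notch receptors, which changes how a receptor answers Delta-like and Jagged ligands. Lfng is a cycling gene of the mouse segmentation clock. In the presomitic mesoderm its transcription is driven by Notch signalling through Rbpj and repressed by Hes7, while Mfng and Rfng are not known to cycle there. CLOCK and BMAL1 bind DNA together at E-boxes, whose common form reads CACGTG.

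On mm10, Lfng (ENSMUST00000031555.2) lies on chromosome 5 at 140607320 to 140615545 on the plus strand. Mfng (ENSMUST00000018313.5) lies on chromosome 15 at 78755882 to 78773475 and Rfng (ENSMUST00000026156.7) on chromosome 11 at 120780748 to 120784207, both on the minus strand. Each has 8 exons in the GENCODE annotation, and no other feature of the tables overlaps them. The bases just before the transcript start are shown for the member that responded and for one that did not, because E-box and Rbpj letters can be read in them. They are from RefSeq (GRCm38.p6, the assembly of mm10), 5′ to 3′ on the gene's strand, at chr5:140607091-140607319 for Lfng and chr11:120784208-120784454 for Rfng. Capitals mark CACGTG and TGGGAA, the core letters of Rbpj sites, which read TTCCCA when they lie on the opposite strand. No promoter entry was matched for Mfng.
Lfng: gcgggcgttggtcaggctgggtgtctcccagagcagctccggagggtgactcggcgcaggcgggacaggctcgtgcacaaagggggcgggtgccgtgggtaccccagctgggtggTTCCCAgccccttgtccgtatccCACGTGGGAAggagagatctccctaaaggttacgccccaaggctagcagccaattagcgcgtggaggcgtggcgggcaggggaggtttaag
Rfng: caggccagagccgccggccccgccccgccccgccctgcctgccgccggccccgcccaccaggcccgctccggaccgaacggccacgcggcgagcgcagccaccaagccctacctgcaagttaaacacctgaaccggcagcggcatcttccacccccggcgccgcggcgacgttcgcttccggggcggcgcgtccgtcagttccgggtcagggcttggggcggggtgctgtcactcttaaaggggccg
The Lfng stretch of 229 bases held 1 CACGTG at positions -91 to -86 from the transcript start. A TGGGAA at -87 to -82 overlapped it, so that the letters joined as CACGTGGGAA, a string picked after the sequence was seen. Another TGGGAA lay on the opposite strand at -114 to -109. The Rfng stretch of 247 bases held neither motif on either strand, nor the E-box variant CACGTT, which was also absent from the Lfng stretch. The N-box CACNAG, the letters bound by Hes repressors, occurred once in each, at -160 to -155 on the minus strand of the Lfng stretch and at -192 to -187 in the Rfng stretch. Of 32851 RefSeq windows of 300 bases, 7.15% held CACGTG on either strand, 4.68% CACGTT, 25.6% TGGGAA, 42.5% CACNAG and 0.107% the joined string. These matches are letters only, and binding was not measured.

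Library totals were 38184055 to 47767592 counts in iPSM and 40315227 to 57299360 counts in ESC. The untreated iPSM control library stood apart, with reads over 69.4% of features against 50.2% to 54.0% in the other iPSM libraries, and it entered the fits but no contrast of the transgenic clones. Without it the iPSM effect of Clock/Bmal1 on Lfng was 2.34 (adjusted p = 0.0442, edgeR). The labelled cell types matched their markers: the summed level of 9 presomitic mesoderm genes was 814 to 1563 CPM (counts scaled to a common library size) in iPSM and 15.8 to 65.5 CPM in ESC, and that of 6 pluripotency genes was 174 to 334 CPM in iPSM and 1276 to 1977 CPM in ESC. Arntl, the gene for BMAL1, rose on dox in both Clock/Bmal1 groups (5.89 in iPSM and 6.08 in ESC, adjusted p = 0.00157 and 0.00225, edgeR) and in Clock/Bmal1DN ESC (5.84, adjusted p = 0.0145), while in Clock/Bmal1DN iPSM its log2 fold change of 3.27 did not pass (adjusted p = 1). Treated clones had 56.9 and 60.7 times the untreated Arntl counts in iPSM Clock/Bmal1 clones 12 and 20 and 48.6 and 85.7 times in ESC Clock/Bmal1 clones 1 and 7. In the Clock/Bmal1DN clones the ratio was 21.2 in iPSM clone 7, 29.6 in ESC clone 5 and 91.6 in ESC clone 6, and 2.32 in iPSM clone 19. In the control line it was 0.965 in iPSM and 0.97 in ESC. For Clock the ratios were 17.6 and 23.8 in iPSM Clock/Bmal1 clones 12 and 20. They were 9.1 and 9.8 in iPSM Clock/Bmal1DN clones 7 and 19. In ESC they were 17.7 and 9.7 in Clock/Bmal1 clones 1 and 7, and 9.1 and 37.8 in Clock/Bmal1DN clones 5 and 6. The control line had Clock ratios of 0.978 in iPSM and 0.956 in ESC. Reads of the transgenes are part of the Arntl and Clock counts.

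Lfng was the fringe gene that responded to Clock/Bmal1, in both cell types, and Mfng and Rfng did not pass the test in either. In iPSM the level of Lfng after 2 hours of dox was 5.09 times that of the same clones without dox. In ESC, which are other clones, the level after 6 hours was 6.99 times the untreated one. No such rise was seen with Clock/Bmal1DN or in the control line. The iPSM Clock/Bmal1DN result is limited by clone 19, where treated Arntl was only 2.32 times its untreated level, against 21.2 in clone 7.

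In iPSM, Lfng had 43.7 CPM in clone 12 and 89.3 CPM in clone 20 with dox, against 7.36 and 19.3 CPM in the same clones untreated. Both treated libraries lay above all 8 other iPSM libraries, which ended at 35.7 CPM. Within a clone the ratio of treated to untreated counts, scaled to the iPSM libraries, was 5.99 in clone 12 (95% exact counting interval 5.37 to 6.69) and 4.72 in clone 20 (4.39 to 5.08). These intervals cover counting error only, and no molecular identifiers are described for the reads. Lfng rose by a log2 fold change of 2.35 ± 0.432 (SE, n = 2 clones per group, 5.09-fold, adjusted p = 0.0253 in edgeR's quasi-likelihood test with Benjamini-Hochberg adjustment). It was 1 of 3 members that passed, where 1.02% of the 24805 tested features passed (0.996% upwards and 0.0282% downwards). Clone 12 held less Lfng than clone 20 both with and without dox. Without treated clone 20 the value was 1.73 and the call was lost (adjusted p = 0.282).

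In ESC, Lfng had 92.4 CPM in clone 1 and 104.3 CPM in clone 7 with dox, against 13.4 and 14.2 CPM in the same clones untreated. The treated libraries stood far above the other 8 ESC libraries, which ended at 18.8 CPM. The within-clone ratios, 6.83 (6.29 to 7.42) and 7.14 (6.60 to 7.74), overlapped. The log2 fold change was 2.81 ± 0.242 (n = 2 clones per group, 6.99-fold, adjusted p = 0.00298, edgeR). Here too 1 of 3 members passed, where 0.422% of 22500 features passed (0.404% upwards and 0.0178% downwards). Without untreated clone 1 the value was 2.75 (adjusted p = 0.0501) and without untreated clone 7 it was 2.86 (adjusted p = 0.0513).

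**Figure D1:**
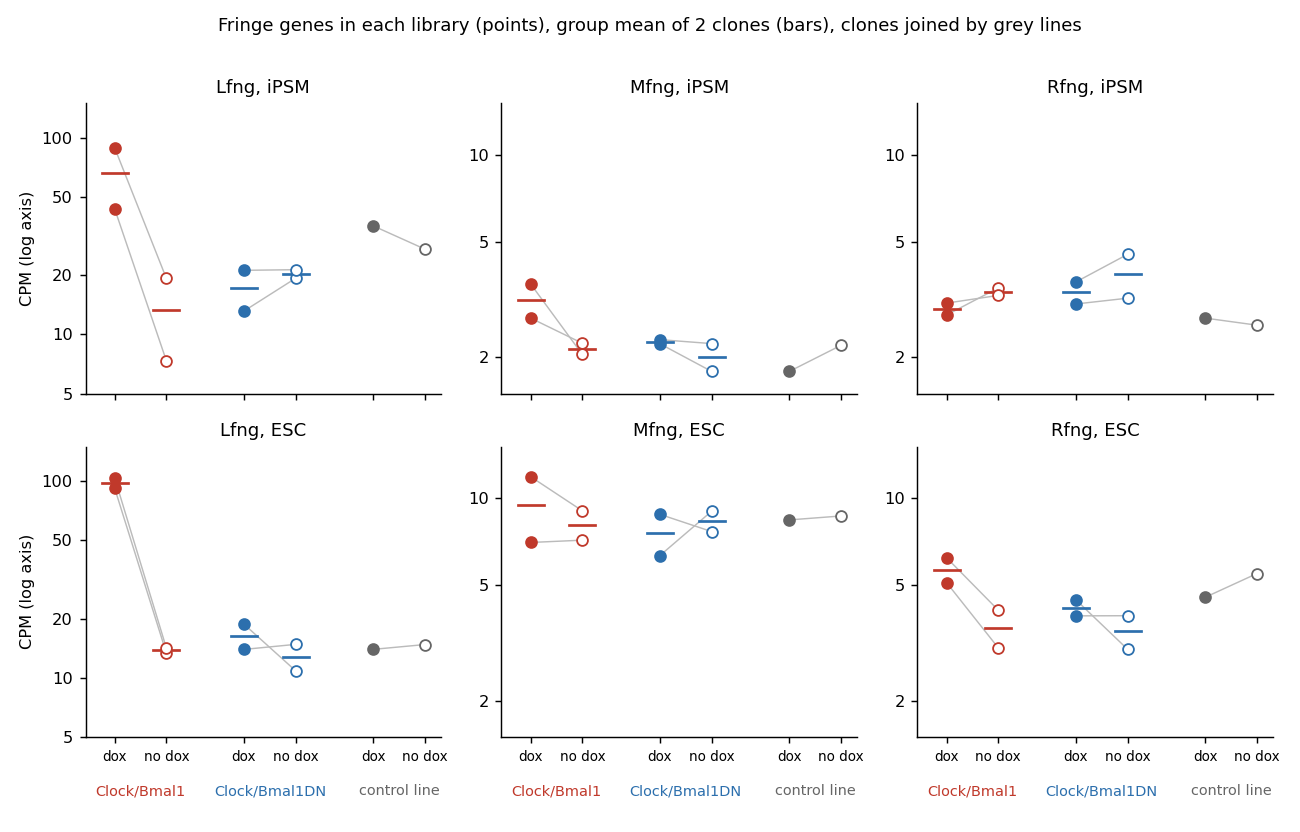
Levels of Lfng, Mfng and Rfng in CPM (vertical log axis) in each of the 20 libraries, iPSM above and ESC below; filled points are dox, open points untreated, bars are means of 2 clones and grey lines join the libraries of 1 clone or line. Lfng in the treated Clock/Bmal1 clones, at 43.7 and 89.3 CPM in iPSM and 92.4 and 104.3 CPM in ESC, lies above every other library of its cell type.

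With Clock/Bmal1DN, Lfng did not pass the test in either cell type. In iPSM it had 13.2 CPM in clone 7 and 21.2 CPM in clone 19 with dox, against 19.3 and 21.4 CPM untreated. The log2 fold change was -0.24 ± 0.416 (n = 2 clones per group, adjusted p = 1 in edgeR; 0 of 3 members and 0.00403% of features passed). The within-clone ratio was 0.682 (0.614 to 0.757) in clone 7 and 0.998 (0.914 to 1.09) in clone 19. Clone 19 had the lowest Arntl ratio of the transgenic clones, 2.32, and a Clock ratio of 9.8. In ESC, Lfng had 13.95 CPM in clone 5 and 18.8 CPM in clone 6 with dox, against 14.8 and 10.9 CPM untreated (0.32 ± 0.229, adjusted p = 0.987, edgeR; 0 of 3 members and 0.00444% of features passed). The within-clone ratio was 0.94 (0.835 to 1.06) in ESC clone 5, an interval that includes 1, and 1.66 (1.48 to 1.87) in clone 6. Fibroblast feeder markers differed in clone 6 as well, with a summed level of 78.0 CPM treated and 736.3 CPM untreated over 8 genes, none at 0. Their part in the Lfng value was not tested. Without clone 6 the Lfng value was -0.09.

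In the control line, Lfng had 35.7 CPM with dox and 27.2 CPM without in iPSM, and 13.96 CPM with dox and 14.8 CPM without in ESC. Scaled within a cell type, the ratios were 1.22 (1.13 to 1.31) in iPSM and 0.943 (0.841 to 1.06) in ESC. With 1 library each, these have no replicate check. The iPSM ratio above 1 is smaller than that of either Clock/Bmal1 clone.

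**Figure D2:**
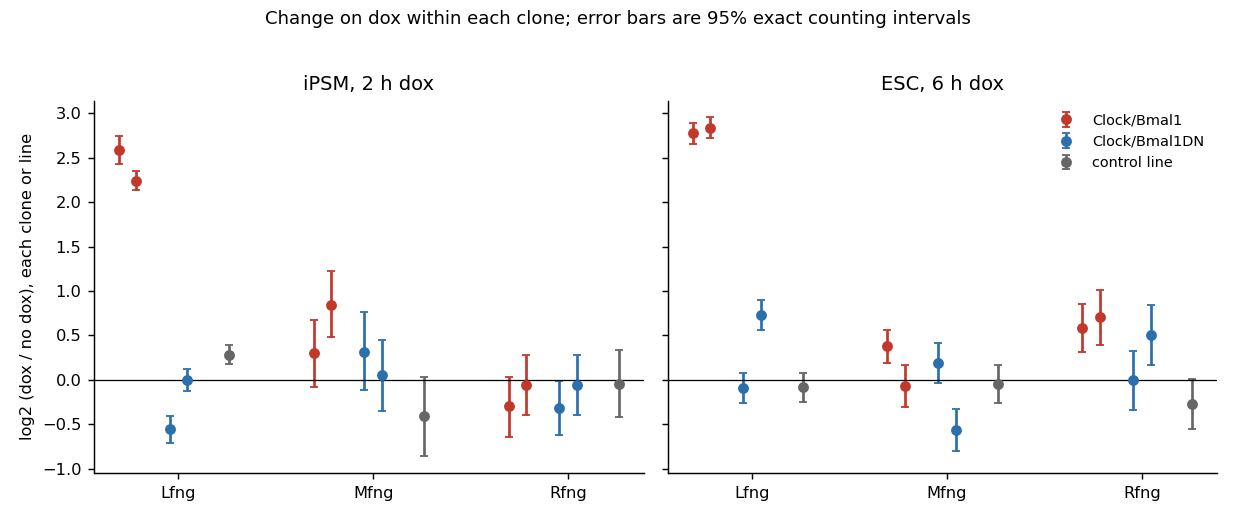
Log2 ratio of treated to untreated counts (vertical axis) of each fringe gene within each clone or control line, iPSM at the left and ESC at the right; error bars are 95% exact counting intervals. Lfng in the Clock/Bmal1 clones, with ratios of 4.72 to 7.14, is above every other point in both panels.

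The effect of Clock/Bmal1 on Lfng exceeded that of Clock/Bmal1DN by 2.49 ± 0.327 on the log2 scale in ESC (2 clones in each of 4 groups, adjusted p = 0.0483, edgeR), where 0.0578% of features passed and 1 of 3 members did. That call was lost in all 8 fits without 1 library, with values of 2.26 to 2.72 and adjusted p of 0.088 to 0.304, and without both libraries of clone 6 (2.92, adjusted p = 0.384). In iPSM the difference was 2.59 ± 0.595 and did not pass (adjusted p = 0.202, edgeR; 0 of 3 members and 0.278% of features passed). The numbers of the libraries were taken to name the clones, and so to pair each treated library with an untreated one. With clone as a replicate block the iPSM difference was 2.68 ± 0.255 and passed (adjusted p = 0.00023, edgeR). Without untreated clone 20 it was 3.44 (adjusted p = 0.00688). The difference between the iPSM and the ESC effect of Clock/Bmal1 was -0.52 ± 0.54 (adjusted p = 1, edgeR, 0 of 26689 features passed and 1074 had an unadjusted p under 0.05). DESeq2 called 15 features there, none of them a member.

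Before dox the clones of one cell type did not differ detectably in Lfng by transgene. Untreated Clock/Bmal1 clones had 7.36 and 19.3 CPM, and untreated Clock/Bmal1DN clones 19.3 and 21.4 CPM, in iPSM (-0.61 ± 0.418, adjusted p = 0.842, edgeR; 0 of 24805 features passed, 1190 had an unadjusted p under 0.05 and DESeq2 called 25). In ESC the untreated values were 13.4 and 14.2 CPM in Clock/Bmal1 clones and 14.8 and 10.9 CPM in Clock/Bmal1DN clones (0.09, adjusted p = 1, edgeR; 0 of 3 members and 0.00889% of features passed).

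Ordered by group mean, Lfng was highest in treated Clock/Bmal1 ESC, at 98.4 ± 8.40 CPM (SD, n = 2), and next in treated Clock/Bmal1 iPSM, at 66.5 ± 32.2 CPM. The ranges of these groups did not overlap each other or any other group. The control line in iPSM followed at 35.7 CPM with dox and 27.2 CPM without. The remaining 8 groups had means or single values of 12.8 to 20.4 CPM. Neighbours in that order overlapped, except the single ESC control libraries without dox (14.8 CPM) and with dox (13.96 CPM). Among untreated clones, iPSM minus ESC was 0.31 ± 0.272 for Lfng (n = 4 clones per cell type, adjusted p = 0.346, edgeR). The levels were 7.36 to 21.4 CPM in the untreated iPSM clones and 10.9 to 14.8 CPM in untreated ESC clones.

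Lfng varied more among untreated iPSM libraries, with a lowest, median and highest value of 7.36, 19.3 and 27.2 CPM, than among untreated ESC libraries, with 10.9, 14.2 and 14.8 CPM. Somite markers varied beside it. The summed level of 6 somite genes, at most 1 of them at 0 in any iPSM library, was 17.5 CPM in treated and 24.4 CPM in untreated Clock/Bmal1 clone 12, and 71.7 CPM in treated and 78.8 CPM in untreated clone 20. It was 70.4 to 119.5 CPM in the Clock/Bmal1DN clones and 169.7 and 176.4 CPM in the treated and untreated control line. The part of somite-like cells in these levels was not tested. Aldh1a2 made up most of this sum, at 172.2 CPM in the untreated control line. In the Clock/Bmal1 clones Aldh1a2 had means of 47.2 CPM untreated and 38.0 CPM treated. Within both Clock/Bmal1 clones the sum was lower with dox while Lfng was higher. Single genes of the list did not all fall. Of 5 tested, 3 had a positive log2 fold change, and Ripply2 passed upwards, with means of 0.0762 CPM untreated and 2.37 CPM treated.

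**Figure D3:**
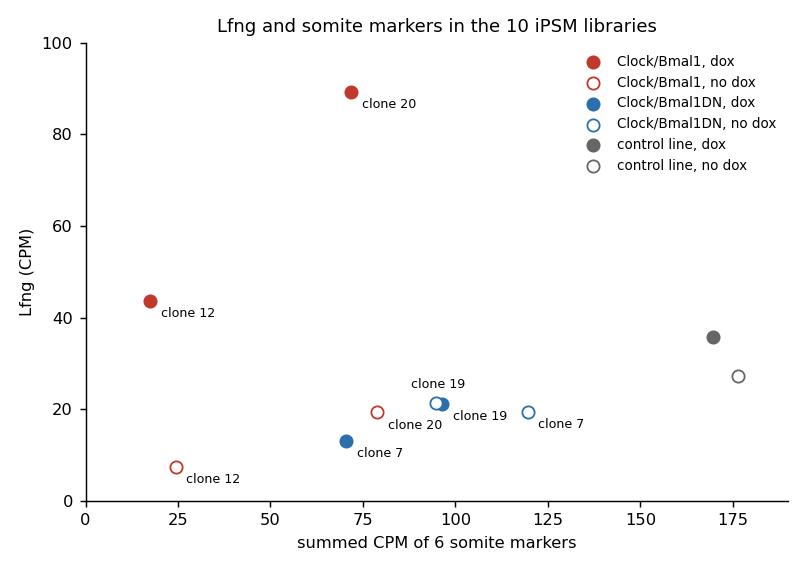
Lfng level (vertical axis, CPM) against the summed level of 6 somite markers (horizontal axis, CPM) in the 10 iPSM libraries; filled points are dox and open points untreated. The treated Clock/Bmal1 libraries, at 43.7 and 89.3 CPM of Lfng, lie above libraries with a similar or higher somite sum, which is mostly Aldh1a2.

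Mfng was low and differed between iPSM and ESC, which also differ in parental line. In the dox contrasts Mfng did not pass. With Clock/Bmal1 it had 2.73 CPM in clone 12 and 3.58 CPM in clone 20 treated, against 2.24 and 2.05 CPM untreated, in iPSM (0.58 ± 0.267, adjusted p = 0.907, edgeR). These are 123 and 184.5 counts with dox and 118 and 92 without, and the groups did not overlap. In ESC the treated clones had 11.8 and 7.02 CPM and the untreated ones 9.02 and 7.15 CPM (0.19, adjusted p = 0.895, edgeR), with overlap. With Clock/Bmal1DN the log2 fold change was 0.18 in iPSM and -0.17 in ESC, and neither passed.

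Untreated, Mfng was lower in iPSM than in ESC. It had 2.24 and 2.05 CPM in Clock/Bmal1 and 1.79 and 2.23 CPM in Clock/Bmal1DN iPSM clones, against 9.02 and 7.15 CPM and 7.65 and 8.995 CPM in the ESC clones. All untreated iPSM libraries lay below all untreated ESC libraries, the control lines included, at 2.20 CPM in iPSM and 8.66 CPM in ESC. The difference was -1.98 ± 0.218 (n = 4 clones per cell type, 0.253-fold, adjusted p = 1.63e-06, edgeR) and ranged from -2.07 to -1.89 with 1 library left out. It was 1 of 3 members called in a contrast that called 60.0% of 26689 features (31.3% upwards and 28.8% downwards). Feeder markers moved with the cell type, at 13.8 to 21.8 CPM in iPSM and 73.7 to 736.3 CPM in ESC. Mfng was 8.66 CPM in the untreated ESC control line, with a feeder sum of 74.7 CPM, and 8.995 CPM in untreated Clock/Bmal1DN clone 6, with a feeder sum of 736.3 CPM. The part of feeder cells in the Mfng difference was not tested.

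Rfng, the remaining member, passed in none of the 10 contrasts tested. In ESC with Clock/Bmal1 it had 6.22 CPM in clone 1 and 5.10 CPM in clone 7 treated, against 4.10 and 3.04 CPM untreated. The groups did not overlap, but the log2 fold change of 0.64 ± 0.296 did not pass (n = 2 clones per group, adjusted p = 0.682, edgeR), and the untreated control line, at 5.49 CPM, lay between the treated clones. In iPSM the treated clones had 2.80 and 3.08 CPM and the untreated ones 3.47 and 3.27 CPM (-0.18, adjusted p = 1, edgeR). The iPSM effect minus the ESC effect was -0.86 ± 0.40, with an unadjusted p of 0.0476 and an adjusted p of 1. With Clock/Bmal1DN Rfng gave -0.20 in iPSM and 0.24 in ESC, and neither passed. Among untreated clones Rfng had 3.20 to 4.53 CPM in iPSM and 3.01 to 4.10 CPM in ESC (0.04, adjusted p = 0.911, edgeR).

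Per length, Lfng was the most abundant fringe RNA in nearly every library. In the authors' RPKM over the gene body, Lfng was above Mfng in all 20 libraries and above Rfng in 9 of 10 iPSM and 10 of 10 ESC libraries, and Rfng was above Mfng in all 20. Median RPKM in iPSM was 2.704 for Lfng, 0.136 for Mfng and 0.938 for Rfng, and in ESC 1.61, 0.434 and 1.11. The order of the lower pair depends on the length used. Introns make up 72.0% of the Lfng, 89.4% of the Mfng and 38.8% of the Rfng gene body. Per kilobase of mRNA, a scale added after the values were seen, Rfng was above Mfng in 8 of 10 iPSM but 0 of 10 ESC libraries. On the RPKM scale Lfng made up 84.6% and 90.8% of the family's summed level in the treated Clock/Bmal1 iPSM clones, against 44.2% to 83.0% in the other iPSM libraries. In ESC these were 82.0% and 87.1% in the treated Clock/Bmal1 clones and 46.4% to 58.0% in the others. Per kilobase of mRNA the iPSM groups overlapped, with 87.2% and 92.0% in the treated Clock/Bmal1 clones and 52.9% to 87.3% in the other libraries, the highest being the treated control line. In ESC they did not overlap on that scale, with 81.2% and 88.0% against 43.0% to 59.6%.

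The other Notch pathway genes are given by list, beside the 1.02% of all features in iPSM and 0.422% in ESC that passed with Clock/Bmal1; at these shares a list of this size has 0 or few calls. Of the 4 receptors, Notch1 to Notch4, 0 passed in either Clock/Bmal1 contrast, with median log2 fold changes of -0.05 in iPSM and 0.28 in ESC, beside -0.02 and -0.01 over all tested features. Of 16 listed enzymes that build O-linked sugars on EGF repeats or supply them, 13 were tested and 0 passed in either. Among these were Pofut1, which adds the fucose that fringe extends (0.07 in iPSM and -0.19 in ESC), and Eogt, which adds N-acetylglucosamine to EGF repeats in the endoplasmic reticulum (-0.19 and 0.06). Of 18 genes for receptor cleavage and transduction 0 passed in either, with medians of 0.02 and 0.20. Rbpj, the DNA-binding partner of cleaved Notch, had 0.10 and 0.11.

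Dll4, a Notch ligand, was 1 of 5 ligands that rose in iPSM with Clock/Bmal1 (3.75 ± 0.624, adjusted p = 0.0141, edgeR). It stayed low, at 1.63 ± 0.450 CPM with dox and 0.117 ± 0.103 CPM without (SD, n = 2), and without treated clone 20 it did not pass (3.43, adjusted p = 0.242). In ESC 0 of 5 ligands passed, and Dll4 had 3.01 ± 0.602 (adjusted p = 0.099). The median over the 5 ligands was 0.92 in ESC, with 4 positive, and -0.01 in iPSM, with 2 positive. Hes1, a Notch-driven repressor, was 1 of 8 target genes that rose in iPSM, at 89.9 ± 3.26 CPM with dox and 15.3 ± 5.35 CPM without (2.58 ± 0.249, adjusted p = 0.000543, edgeR), and it passed in all 4 fits without 1 library. Hes7, the repressor of Lfng in presomitic mesoderm, had 0.94 ± 0.376 (adjusted p = 0.691) and Hey1 1.51 ± 0.444 (adjusted p = 0.279). With clone as a replicate block Hes7 (1.08, adjusted p = 0.0159) and Hey1 (1.501, adjusted p = 0.00127) passed as well. In ESC 0 of 7 tested targets passed, and Hes1 had 1.30 ± 0.449 (adjusted p = 0.481). The median over the tested targets was 1.02 in iPSM, with 7 of 8 positive, and 0.48 in ESC, with 6 of 7 positive. Nrarp, a feedback inhibitor of Notch, had 0.07 in iPSM and 0.44 in ESC.

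Ripply2, a repressor that ends the presomitic programme, was 1 of 6 presomitic regulators that rose in iPSM (5.01 ± 0.738, adjusted p = 0.00667, edgeR), at 2.37 ± 1.66 CPM with dox and 0.0762 ± 0.0810 CPM without. Without treated clone 20 it did not pass (4.0, adjusted p = 0.121). Tbx6 and Msgn1, T-box and bHLH factors of the presomitic mesoderm, had -0.67 and -0.82 and did not pass. In ESC 0 of 3 tested regulators passed. Of 13 circadian E-box targets, 11 rose in each Clock/Bmal1 contrast, with medians of 2.86 in iPSM and 3.12 in ESC, so that the fold change of Lfng lay below the median of that list in both. Per1, a circadian repressor, rose by 2.86 ± 0.248 in iPSM and 3.12 ± 0.463 in ESC (adjusted p = 0.000258 and 0.0273, edgeR). In the ESC fits without 1 library 3 to 10 of the 11 kept the call, and in iPSM 10 or 11. With Clock/Bmal1DN 0 genes of these 7 lists passed in either cell type, where 0.00403% of all features passed in iPSM and 0.00444% in ESC, so that 0 is the background.

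**Figure D4:**
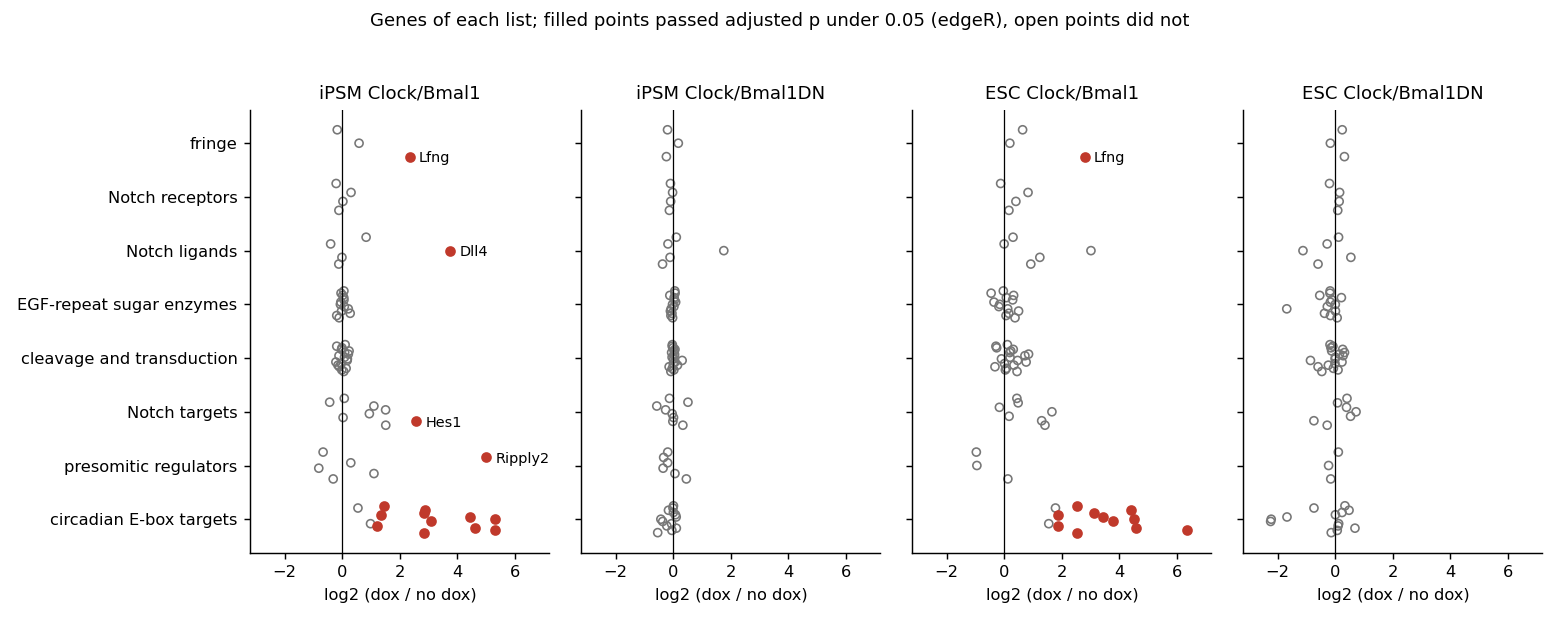
Log2 fold change on dox (horizontal axis) of each tested gene, by list (rows), for Clock/Bmal1 and Clock/Bmal1DN in iPSM and in ESC; filled points passed an adjusted p under 0.05 and open points did not. With Clock/Bmal1, Lfng and 11 of 13 circadian E-box targets are filled in both cell types, and Dll4, Hes1 and Ripply2 in iPSM.

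Among untreated clones the calls between cell types in the Notch lists are set beside the 60.0% of all tested features that passed, and nothing particular to the pathway is read from them. In iPSM minus ESC the test passed upwards for Notch1 (2.02) and Notch2 (0.65) of 4 receptors. Of 5 ligands it passed upwards for Dll1 (4.43) and Dll3 (2.96), the Delta-like ligands of the presomitic mesoderm, and downwards for Jag2 (-2.08) and Dll4 (-2.50). Of 13 sugar enzymes 6 passed upwards, Eogt (1.88) and Gmds (1.44) among them, and Tsta3 downwards (-0.84). Of 18 genes for cleavage and transduction 12 passed upwards and 3 downwards. Of 8 targets 4 passed upwards, led by Hes7 (7.40), and Dtx1 downwards (-3.21). Of the fringe genes only Mfng passed in this contrast.

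The genes whose profile over the 10 libraries of a cell type was most like that of Lfng were ranked by the root mean square difference of centred log2(CPM + 1), among features with a mean of at least 1 CPM. In iPSM they were Trmt9b (0.361), Pgf (0.425), Hey1 (0.425), Dgkg (0.426) and Stc2 (0.44), where the median over 15207 features was 0.913. In ESC they were Gm46603 (0.171), Onecut1 (0.194), Ppp1r1b (0.197), 9530059O14Rik (0.222) and Cygb (0.223), where the median over 15025 features was 1.12. These 5 ESC genes were low, with lowest values of 0 to 0.78 CPM and highest values of 7.27 to 15.0 CPM. Lfng had 10.9 to 104.3 CPM there. The 1 CPM added before the log shrinks the fold changes of such low genes, so their fold changes need not resemble that of Lfng. No gene was on both lists of 5. For Mfng and Rfng the range of log2(CPM + 1) was under 1 in each cell type, and no ranking was made.

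Of 8 features within 100 kb of Lfng, 4 were tested in iPSM and 6 in ESC, and 0 passed in the Clock/Bmal1 contrasts, as the share of all features that passed (1.02% and 0.422%) would also give. The nearest, Ttyh3, an ion channel gene 5.03 kb away on the opposite strand, had 0.12 in iPSM and 1.12 in ESC (adjusted p = 1 and 0.562, edgeR). Chst12, a sulfotransferase gene 81.6 kb away, had 0.98 and 0.82 (adjusted p = 0.189 and 0.599). Around Mfng, 1 of 3 tested features passed in each cell type. The log2 fold changes of these 3 features were all positive, at 0.368 to 2.575 in iPSM and 0.734 to 5.098 in ESC. Card10, a scaffold protein gene 1.66 kb from Mfng on the same strand, rose in iPSM, with 10.7 and 16.6 CPM in treated clones 12 and 20 and 6.22 and 4.67 CPM untreated (1.35 ± 0.257, adjusted p = 0.0305). The call was lost without treated clone 20 and without untreated clone 20, with values of 0.98 to 1.63 over the 4 fits. Elfn2, 37.8 kb from Mfng, rose in ESC, with 4.39 and 1.20 CPM in treated clones 1 and 7 and 0.0976 and 0.0570 CPM untreated (5.10 ± 0.796, adjusted p = 0.0316). Its call was kept in 1 of 4 fits without 1 library. Around Rfng 0 of 11 tested features passed. Gps1, a COP9 signalosome gene that starts 0.31 kb from Rfng on the opposite strand, had -0.12 in iPSM and -0.53 in ESC (adjusted p = 1 and 0.569).

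**Figure D5:**
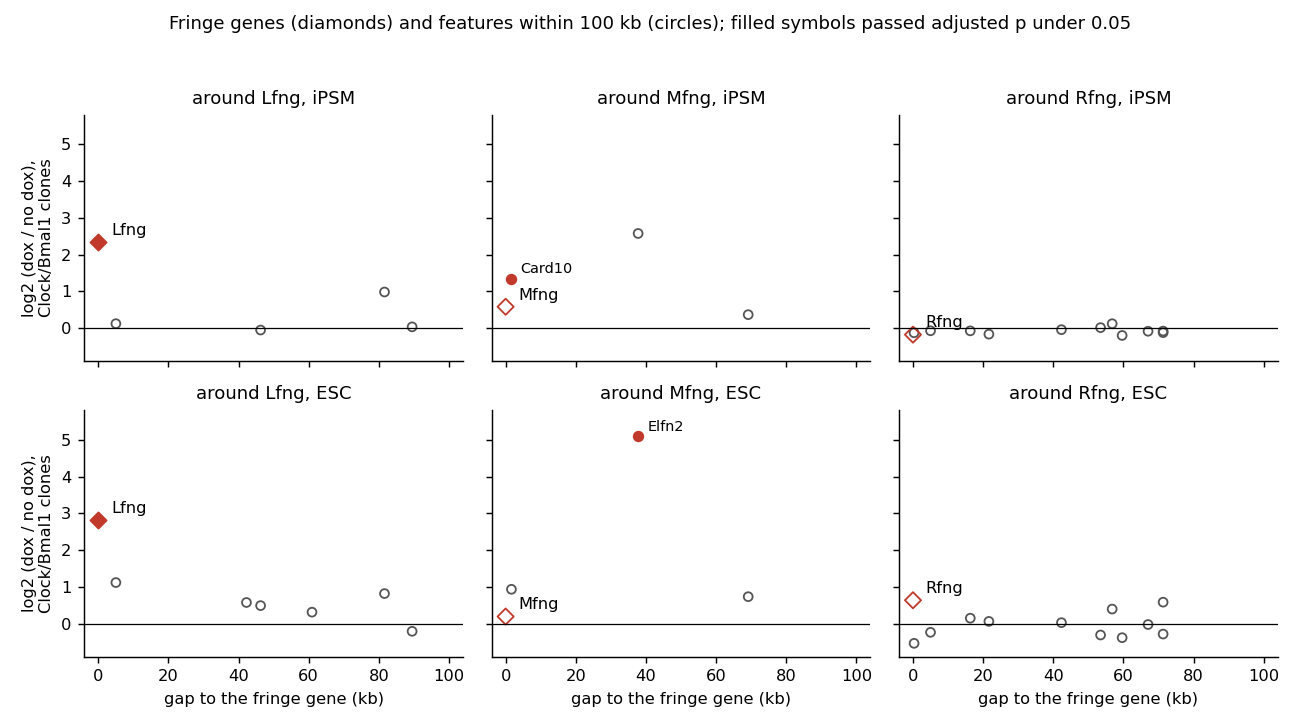
Log2 fold change on dox in the Clock/Bmal1 clones (vertical axis) of each fringe gene (diamond) and of tested features within 100 kb (circles) against the gap between them in kb (horizontal axis), iPSM above and ESC below; filled symbols passed. Lfng stands above its neighbours in both cell types, while Mfng lies below Card10 in iPSM and below Elfn2 in ESC.

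The promoter letters seen in Lfng can be set beside the calls. Of 14978 tested iPSM genes with a RefSeq window, 1567 held CACGTG, and 69 of these rose with Clock/Bmal1 (4.4%), against 1.27% of all. In ESC 27 of 1515 rose (1.78%), against 0.499% of all 13840. Of the risen genes 36.3% in iPSM and 39.1% in ESC held CACGTG, where 10.5% and 10.9% of the tested genes did. For TGGGAA the shares of holders that rose were 1.24% in iPSM and 0.395% in ESC. The joined string CACGTGGGAA was held by 26 tested genes in each cell type, of which Lfng and Stambpl1 rose in iPSM and Lfng alone in ESC. The string was taken from the Lfng stretch itself, so that Lfng is among its risen holders by choice of the string. Whether these letters have a part in the rise of Lfng was not tested.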

How the data were processed

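Expected counts and RPKM per transcript were deposited by the authors in 1 table per cell type, over the gene body with introns, so that unspliced RNA adds to them. Per the submitters' processing notes, bcl2fastq, STAR 2.7.2a and HOMER were used with mm10; the roles of the tools and other parameters are not given in the sources used here. Libraries were stranded total RNA, per the labels' protocols. The deposited counts run in steps of 0.5 and were rounded to whole numbers for the tests. The RPKM that the authors deposited was recomputed from their counts to within 1% plus 0.001 for 100.0% of values.

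Features were filtered with filterByExpr, scaled with TMM and tested with edgeR 4.0.16 (R 4.3.3, quasi-likelihood test, Benjamini-Hochberg adjustment over all tested features, threshold 0.05). A fit of 1 cell type had 4 residual degrees of freedom, that of all 20 libraries had 8, and a fit with clone as a block had 2. CPM and the list sums of CPM were scaled over all 20 libraries, and within-clone ratios were scaled within a cell type. Library totals ranged from 38184055 to 57299360 counts. The code was tested on simulated data.

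Clone numbers in the labels were taken to name the clone measured with and without dox, and so to pair the libraries. The within-clone ratios depend on this pairing. Deviations of the paired libraries correlated at 0.261 and 0.341 for the Clock/Bmal1 and Clock/Bmal1DN clones in iPSM, and at 0.681 and -0.109 in ESC. Alternatives were clone as a block, DESeq2 1.42.0, RLE scaling, no low-count filter, and leaving out each library. Named genes were the 3 members, list genes that passed, regulators of Lfng, neighbours within 100 kb and the 5 genes most like Lfng. Members and lists were chosen with earlier results of these data known. Sequences came from RefSeq.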

Additional observations from a re-analysis of the deposited data

Results flagged for a closer look

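The effect of dox on Lfng differed between the Clock/Bmal1 and the Clock/Bmal1DN clones of ESC in the test of the difference itself, by 2.49 ± 0.327 on the log2 scale (adjusted p = 0.0483, edgeR, 2 clones in each of 4 groups). Both Clock/Bmal1 clones had ratios of 6.83 and 7.14, and the Clock/Bmal1DN clones 0.94 and 1.66. The adjusted p lay above 0.05 in all 8 fits without 1 library, at 0.088 to 0.304, with differences of 2.26 to 2.72.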

How the results depend on the processing

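Of 30 results on the fringe genes 4 passed the test, and 0 of these changed direction under any alternative run. Without both libraries of ESC Clock/Bmal1DN clone 6, chosen after seeing the data, the ESC difference between transgenes for Lfng was 2.92 and no longer passed. The Clock/Bmal1DN effect there became -0.09 for Lfng, 0.20 for Mfng and 0 for Rfng, and the untreated difference between transgenes -0.11, 0.07 and -0.15. The iPSM difference between transgenes for Lfng passed with clone as a replicate block (2.68) and without the low-count filter (2.59). Without that filter iPSM minus ESC for untreated Rfng was -0.03. Per kilobase of mRNA 0 of 10 ESC libraries had Rfng above Mfng. The cause of these shifts was not tested.

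With 1 library left out, the Clock/Bmal1 effect on Lfng was 1.73 to 3.20 in iPSM and 2.75 to 2.90 in ESC, and its difference from Clock/Bmal1DN 1.97 to 3.44 and 2.26 to 2.72. The Clock/Bmal1DN effect was -0.62 to 0.06 in iPSM and 0.11 to 0.55 in ESC for Lfng, 0.03 to 0.33 and -0.42 to 0.06 for Mfng, and -0.45 to 0.07 and 0.07 to 0.43 for Rfng. The untreated difference between transgenes was -1.46 to -0.07 and -0.10 to 0.32 for Lfng, -0.05 to 0.26 and -0.22 to 0.09 for Mfng, and -0.43 to 0.09 and -0.19 to 0.22 for Rfng. Untreated iPSM minus ESC was -0.12 to 0.58 for Lfng and -0.10 to 0.15 for Rfng, and the iPSM minus ESC effect of Clock/Bmal1 on Lfng -1.12 to 0.34. For Mfng the Clock/Bmal1 effect in ESC was -0.23 to 0.57 and its difference from Clock/Bmal1DN -0.05 to 0.74, and for Rfng in iPSM that difference was -0.25 to 0.27.

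Counts of called features moved more than the fringe values. For Clock/Bmal1 in ESC, 95 became 158 with the replicate block, 359 with DESeq2, 537 without the filter and 7 to 90 without 1 library; in iPSM 254 became 597 without the filter and 83 to 678 without 1 library. For the difference between transgenes 69 became 132, 154 and 280 in iPSM, and 13 became 25, 130 and 410 in ESC. Crossing the numbers of the ESC Clock/Bmal1DN clones in the block gave 279 calls for Clock/Bmal1 and 63 for the difference.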
